A study of Macaca mulatta with 7 samples.

Results

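The genes described here build the contacts between axons and glia at the node of Ranvier and beside it. They are CNTN1, CNTN2, CNTNAP1, CNTNAP2, NFASC, NRCAM, ANK3 and SPTBN4, 8 genes chosen by name from 28966 gene symbols or identifiers. The deposited feature lists give the symbol of 7 of the 8. SPTBN4 is listed there by its identifier ENSMMUG00000020796 alone and was named from a reference table. Their mRNA was counted in nuclei of the spinal cord of adult female rhesus monkeys by droplet single-nucleus RNA sequencing, with unique molecular identifiers (UMIs) to count molecules. Each of 7 groups was 1 library. Intact cervical, intact thoracic and intact lumbar cord came from 1 uninjured animal of 5 years. Spared lumbar cord, below a complete transection of the thoracic cord, was taken at 7 days post-injury (dpi) and 14 dpi from animals of 7 years, and at 30 dpi and 6 months post-injury (6 mpi) from animals of 6 years. Animal, age and injury therefore cannot be told apart, and the intact range spans segments of 1 animal, not animals. With 1 library per group no test was possible. All intervals are 95% intervals for counting error only.

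At a node of Ranvier the axon is bare of myelin and holds sodium channels that renew the action potential. NFASC and NRCAM are adhesion molecules of the node and the axon initial segment, and their inner ends bind ankyrin-G, the product of ANK3, which in turn is tied to the membrane skeleton by beta-IV spectrin, the product of SPTBN4. Beside the node, at the paranode, contactin-1 (CNTN1) and Caspr (CNTNAP1) on the axon meet the glial form of neurofascin, also made from NFASC, on the myelin loop. Farther out, at the juxtaparanode, contactin-2 (CNTN2), made by both axon and glia, and Caspr2 (CNTNAP2) hold potassium channels in place. Axonal and glial neurofascin are splice forms of 1 gene. Counts per gene do not separate them.

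The ankyrin-binding motif FIGQY links NFASC and NRCAM to ANK3, so its coding sequence is shown for these 2 members, which alone hold it, and for their relative L1CAM. The 5 codons of the motif are in capitals, with 2 flanking codons on each side, read 5′ to 3′ from the RefSeq annotation of Mmul_10.
NFASC: ggctccTTCATCGGCCAGTACaccgtc
NRCAM: ggctccTTTATTGGACAATACagtggt
L1CAM: ggctccTTCATTGGCCAGTATagtggc
The motif of NFASC is at chr1:62538670-62538684 on the plus strand and is present in 24 of its 25 annotated coding transcripts. That of NRCAM is at chr3:134473234-134473248 on the minus strand, in 32 of 32. That of L1CAM is at chrX:149844072-149844086 on the minus strand, in 8 of 8. Each lies within 1 coding exon. The same 5 residues were found in 8 of 20964 coding genes (0.03816%). A match describes the sequence and does not show binding.

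The genes lie on 6 chromosomes of Mmul_10. CNTN1 (ENSMMUG00000021163) spans 379.2 kb at chr11:40037810-40417009 on the plus strand. NFASC (ENSMMUG00000017508, chr1:62343840-62544472) and CNTN2 (ENSMMUG00000018797, chr1:62564360-62598793) are neighbours on the plus strand, 19.89 kb apart. CNTNAP2 (ENSMMUG00000015772, chr3:172532326-174787817, plus) and NRCAM (ENSMMUG00000021293, chr3:134470875-134776285, minus) share chromosome 3. CNTNAP1 (ENSMMUG00000006091) is the shortest, with 17.37 kb at chr16:53814769-53832140 on the plus strand. ANK3 (ENSMMUG00000003589) is at chr9:77264176-77966486 and SPTBN4 at chr19:39684501-39802451, both on the plus strand. Levels are given in CPM, the UMIs of a gene scaled to 1000000 UMIs of the same class of nuclei in the same library. They are not per gene length, so they are compared between classes and libraries and not between genes.

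After filtering, 63733 nuclei remained, 5638 to 11002 per library. Each library held 45079131 to 150987900 UMIs before filtering, with a median of 3191 to 7355 UMIs per kept nucleus. Clusters gave 9861 neuron-like, 22099 oligodendrocyte-like and 3947 oligodendrocyte precursor (OPC)-like nuclei, besides 4192 astrocyte-like and 18719 microglia-like nuclei. Another 3721 nuclei were left unnamed, 1462 of them at 30 dpi. Among these, a cluster of 1979 nuclei led by ITGAX and GPNMB scored highest on microglial markers, with 1226 nuclei at 30 dpi. The microglia-like class does not include that cluster. A library held 791 to 2823 neuron-like, 1907 to 4307 oligodendrocyte-like and 223 to 1434 OPC-like nuclei. Between 79 and 149 barcodes of a library also occurred in another library. The markers of the 3 classes were highest in their own class in 7 of 7 libraries, except MAP2, which was higher in OPC-like than neuron-like nuclei in every library. Most oligodendrocyte-like nuclei of intact cord and of injured cord fell into different clusters. The 6 oligodendrocyte markers summed to 1.20 to 3.24% of their own-class level in neuron-like nuclei, and the 6 neuron markers to 2.72 to 3.54% of theirs in oligodendrocyte-like nuclei. In microglia-like nuclei, which lack both programmes, these values were 7.35 to 12.1% and 7.74 to 13.9%. The markers were uneven there. Of the neuron markers the lowest stood at 0.481 to 1.42% and the highest at 15.7 to 38.7%. Of the oligodendrocyte markers the lowest stood at 0.408 to 4.22% and the highest at 10.5 to 15.7%. These sums are therefore not 1 level of background shared by all genes. In OPC-like nuclei the 6 neuron markers summed to 44.2 to 56.2% of their own-class level, led by MAP2, while the lowest of the 6 stood at 0.0 to 1.07%. Microglia-like nuclei serve as a reference for background. Their share of neuron markers was above that of oligodendrocyte-like nuclei, so this reference can lie above the background of the latter.

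Most of these genes were read far more often in neurons and precursors than in mature oligodendrocytes. CNTN1, CNTNAP1, CNTNAP2, NRCAM and SPTBN4, 5 of 8, were higher in neuron-like than oligodendrocyte-like nuclei in 7 of 7 libraries. Of all genes compared, 47.3% did the same, so this count alone does not set the list apart. The ratio between the classes ranged over libraries from 4.56 to 19.5 for CNTN1. For CNTNAP1, CNTNAP2, NRCAM and SPTBN4 no ratio is given, since their oligodendrocyte-like levels were near or below the microglia-like level. The other 3 genes were higher in oligodendrocyte-like nuclei in 7 of 7 libraries, as were 29.2% of all genes. CNTN2 was 7.08 to 9.39-fold higher there, ANK3 1.33 to 1.80-fold and NFASC 1.03 to 1.71-fold.

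Between oligodendrocytes and their precursors the genes split in the same way, apart from NFASC. CNTN2 (4.501 to 8.82-fold) and ANK3 (2.25 to 4.25-fold) were higher in oligodendrocyte-like than OPC-like nuclei in 7 of 7 libraries, as were 35.3% of all genes. NFASC was higher in 6 of 7, with ratios of 0.989 to 1.29. CNTN1, CNTNAP1, CNTNAP2, NRCAM and SPTBN4 were higher in OPC-like nuclei in 7 of 7 libraries, as were 25.6% of all genes. CNTN1 was 8.05 to 31.0-fold higher in OPC-like nuclei.

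**Figure D1:**
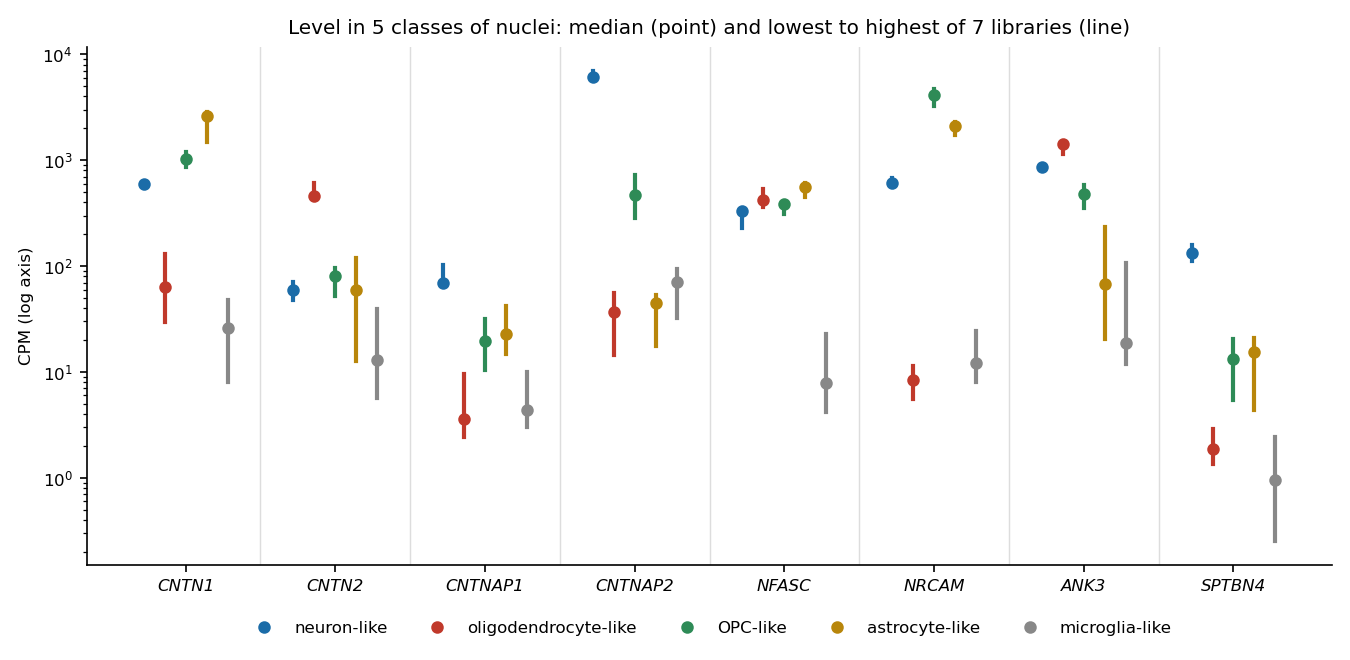
CPM (log axis) of each gene in neuron-, oligodendrocyte-, OPC-, astrocyte- and microglia-like nuclei, with the median of 7 libraries as a point and the lowest to the highest library as a line. CNTN2 and ANK3 peak in oligodendrocyte-like nuclei, NRCAM in OPC-like nuclei, CNTN1 in astrocyte-like nuclei, and CNTNAP1, CNTNAP2 and SPTBN4 in neuron-like nuclei.

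Each gene had its own order of classes over the 7 libraries. CNTN1 was highest in astrocyte-like nuclei (median 2611 CPM, 1477 to 2854), then OPC-like (1037, 869 to 1204), neuron-like (593, 542 to 624) and oligodendrocyte-like nuclei (63.0, 29.4 to 129). The ranges of the first 4 classes did not overlap, while that of oligodendrocyte-like nuclei overlapped the microglia-like range of 7.96 to 47.4. NRCAM was highest in OPC-like nuclei (median 4157, 3264 to 4734), then astrocyte-like (2083, 1738 to 2285) and neuron-like nuclei (609, 553 to 683), with no overlap between these neighbours. ANK3 was highest in oligodendrocyte-like nuclei (median 1435, 1139 to 1504), then neuron-like (856, 821 to 882) and OPC-like nuclei (480.5, 354 to 580.2), again with no overlap.

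CNTNAP2 was highest in neuron-like nuclei (median 6164, 5835 to 7032), with OPC-like nuclei next (474, 286 to 730.3). SPTBN4 (median 133, 111 to 160) and CNTNAP1 (68.8, 65.0 to 102) were also highest in neuron-like nuclei. For both, the ranges of astrocyte-like and OPC-like nuclei overlapped below. CNTN2 was highest in oligodendrocyte-like nuclei (median 458, 418 to 610.3) and its ranges in OPC-like, astrocyte-like and neuron-like nuclei overlapped. Leaving microglia-like nuclei aside, NFASC was the most evenly spread gene by its class medians. They were 553 in astrocyte-like, 420.3 in oligodendrocyte-like, 387 in OPC-like and 331 in neuron-like nuclei, each neighbour overlapping the next, against 7.83 in microglia-like nuclei.

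In oligodendrocyte-like nuclei 4 genes lay at or near the microglia-like level. CNTNAP2 (median 36.6) and NRCAM (8.48) were below microglia-like nuclei (70.1 and 12.1) in 7 of 7 libraries. CNTNAP1 (3.62) was below them (4.33) in 5 of 7. SPTBN4 (1.89) was above them (0.958) in 7 of 7, at few UMIs. No expression of CNTNAP1, CNTNAP2 or NRCAM in mature oligodendrocytes is read from these class levels.

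**Figure D2:**
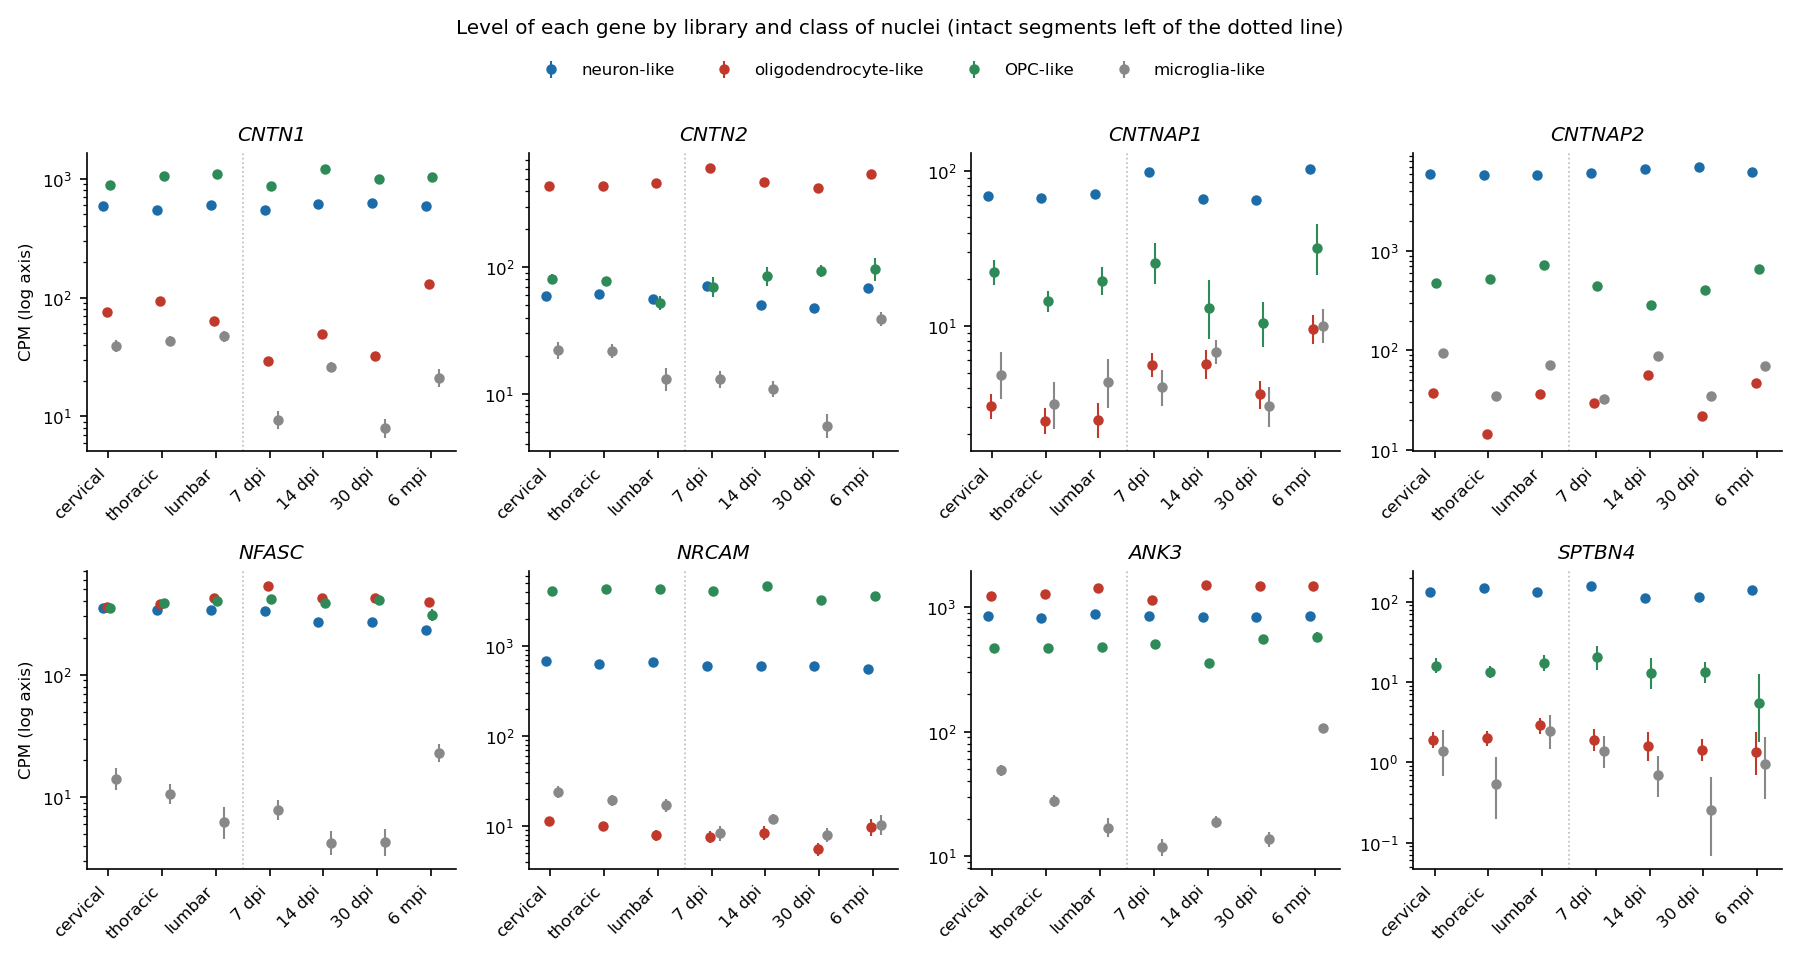
CPM (log axis) of each gene by library in neuron-, oligodendrocyte-, OPC- and microglia-like nuclei, with 95% counting intervals as bars and the 3 intact segments left of the dotted line. NFASC in neuron-like nuclei is at 341 in intact lumbar cord and 231 at 6 mpi, and CNTNAP2 in OPC-like nuclei is lowest at 14 dpi (286).

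Shares of nuclei with a UMI gave the same picture once each nucleus was thinned to 1000 UMIs. ANK3 was seen in 67.2 to 76.0% of oligodendrocyte-like nuclei, against 0.718 to 3.54% of microglia-like nuclei. CNTN2 was seen in 36.0 to 47.6% and NFASC in 31.4 to 44.6% of oligodendrocyte-like nuclei, against 0.529 to 2.64% and 0.329 to 1.08% of microglia-like nuclei. NRCAM was seen in 93.1 to 99.1% of OPC-like nuclei and CNTNAP2 in 92.8 to 97.7% of neuron-like nuclei. CNTNAP1 in oligodendrocyte-like nuclei (0.201 to 1.24%) matched the microglia-like range (0.276 to 1.23%). Unthinned, the share for ANK3 in oligodendrocyte-like nuclei was 96.2 to 99.4%, at median depths of 3512 to 8633 UMIs, against 3.79 to 11.4% of microglia-like nuclei at 2383 to 5341 UMIs.

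The spared lumbar libraries were then compared with intact lumbar cord within each class. A gene was called at a time point where its level differed at least 1.5-fold, lay outside the range of the 3 intact segments, and rested on at least 50 UMIs in the library with the higher level. Where an injured library held fewer UMIs of a class than intact lumbar cord, a higher call needed more CPM than a lower call. For each class 8 genes at 4 times give 32 ratios.

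In neuron-like nuclei none of the 32 ratios was called, and they ran from 0.678 to 1.43. Across all genes the same rule called 9.79% higher and 8.51% lower at 7 dpi, 7.33% and 8.09% at 14 dpi, 7.06% and 7.62% at 30 dpi, and 10.6% and 8.04% at 6 mpi. The 3 intact segments agreed closely for these genes, with the highest segment 1.01 to 1.12 times the lowest. Although uncalled, 25 of the 32 ratios lay outside the intact range, 11 above it and 14 below. Of the ratios of all genes tested over the 4 times, 72.1% lay outside that range, 33.8% above and 38.3% below, so the count does not set these genes apart. The median log2 ratio of the 8 genes was 0.02, -0.13, -0.12 and 0.03 in order of time, against 0.02, -0.05, -0.03 and 0.02 over all genes.

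The nodal adhesion genes NFASC and NRCAM were not called in neuron-like nuclei at any time. The intact cervical, thoracic and lumbar segments held NFASC at 351, 337 and 341 CPM. In the 4 injured libraries, in order of time, NFASC was at 331, 271, 272 and 231, below every intact segment at 4 of 4 times. On the log2 scale its ratios to the intact lumbar library were -0.04 (-0.07 to -0.01), -0.33 (-0.36 to -0.30), -0.32 (-0.35 to -0.29) and -0.56 (-0.60 to -0.52). At 6 mpi NFASC was 1.48-fold lower, just under the threshold of a call. NRCAM was also below the intact range at 4 of 4 times. It was at 683, 640.1 and 662 in the intact segments and at 599.6, 599.7, 609 and 553 after injury. Of all genes tested in neuron-like nuclei, 12.7% lay below the intact range at 4 of 4 times.

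CNTNAP2 was the gene above the intact range at 4 of 4 times, as were 8.37% of all genes. Its intact levels were 5917, 5839 and 5835 CPM, and the injured levels 6164, 6736, 7032 and 6237, a log2 ratio of 0.08 to 0.27. ANK3, the anchor of both adhesion molecules, stayed inside the intact range of 821 to 882 at 4 of 4 times. CNTNAP1 and CNTN2 lay above the range at 7 dpi and 6 mpi and below it at 14 and 30 dpi. CNTNAP1 was at 97.7 and 102 at the former and 65.3 and 65.0 at the latter, against 66.5 to 71.1 in intact cord. SPTBN4 lay above the intact range (131 to 147) at 7 dpi (160), lay below it at 14 dpi (111) and 30 dpi (116), and within it at 6 mpi (139.6). CNTN1 lay above its intact range of 542 to 598 at 14 dpi (612) and 30 dpi (624).

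**Figure D3:**
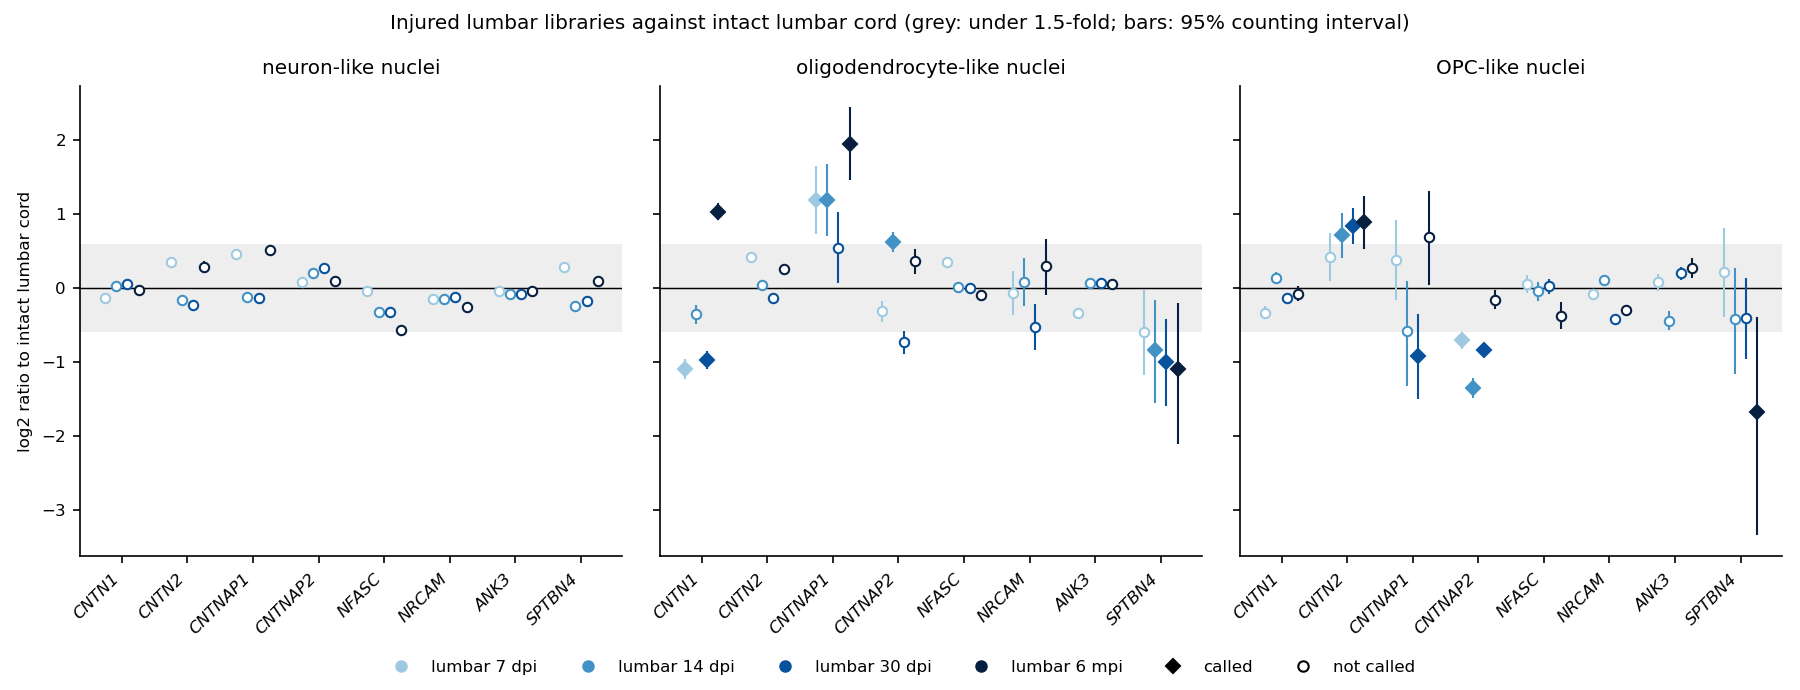
Log2 ratio of each gene to intact lumbar cord at 7, 14 and 30 dpi and 6 mpi in 3 classes of nuclei, with 95% counting intervals as bars. Filled diamonds are called, open circles are not, and the grey band marks less than 1.5-fold. Neuron-like nuclei have 0 calls, oligodendrocyte-like nuclei 10 and OPC-like nuclei 8.

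In oligodendrocyte-like nuclei the 3 genes with high levels there were not called at any time. CNTN2 was at 440.4, 439 and 458 CPM in intact cord and at 610.3, 473, 418 and 548 after injury. NFASC was at 359.9, 382 and 420.3 in intact cord and at 536, 424, 422 and 395 after injury. ANK3 was at 1242, 1276 and 1435 in intact cord and at 1139, 1504, 1497 and 1483 after injury. Their 12 ratios to intact lumbar cord ran from 0.794 to 1.33.

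The 10 calls in this class, 5 higher and 5 lower, fell on genes with low levels there. The same rule called 20.7% of all genes higher and 7.17% lower at 7 dpi, 8.01% and 10.0% at 14 dpi, 10.2% and 8.94% at 30 dpi, and 17.4% and 8.61% at 6 mpi. The median log2 ratio of the 8 genes was -0.19, 0.06, -0.33 and 0.28 in order of time, against 0.16, -0.04, 0.0039 and 0.09 over all genes. CNTNAP1 was higher at 7 dpi, 14 dpi and 6 mpi, at 5.64, 5.66 and 9.56 CPM against 2.48 in intact lumbar cord. Microglia-like nuclei held 4.02, 6.80 and 10.1 in those libraries, so these levels are near the microglia-like level. At 14 dpi and 6 mpi they lay below it. With the microglia-like level subtracted CNTNAP1 was called higher at 2 of the 4 times, and after thinning to 1000 UMIs at 0. SPTBN4 was lower at 14 dpi, 30 dpi and 6 mpi, where it rested on 25, 39 and 12 UMIs against 73 in intact lumbar cord. With the microglia-like level subtracted no call of SPTBN4 was left, and its log2 ratio turned to 1.05 at 14 dpi and 1.43 at 30 dpi. CNTNAP2 was higher at 14 dpi (56.2 against 36.6), with 88.3 in microglia-like nuclei of the same library.

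CNTN1 was the called gene with the most UMIs in oligodendrocyte-like nuclei. Its intact levels were 75.9, 93.4 and 63.0 CPM (cervical, thoracic, lumbar). The injured levels were 29.4, 49.2, 32.0 and 129 in order of time. The 7, 14 and 30 dpi levels lay below all intact segments and the 6 mpi level above them. The log2 ratios were -1.10 (-1.23 to -0.97), -0.36 (-0.48 to -0.23), -0.98 (-1.10 to -0.86) and 1.03 (0.92 to 1.14). In microglia-like nuclei CNTN1 was at 39.3, 43.3 and 47.4 in intact cord and at 9.35, 26.0, 7.96 and 21.1 after injury. Astrocyte-like nuclei, the class with the highest CNTN1, numbered 978 in the intact lumbar library and 98, 251, 147 and 115 after injury. The part of these values in the CNTN1 result was not tested. With the microglia-like level subtracted, the ratios at 7 and 30 dpi changed sign. This takes 47.4 CPM from the intact lumbar level, while 4 of the 6 oligodendrocyte-like clusters together held CNTN1 at 9.56 CPM there. With each nucleus named alone from its markers, only the lower call at 7 dpi was left of the 3 calls, while the log2 ratio at 6 mpi was 1.07.

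CNTN1 in oligodendrocyte-like nuclei was concentrated in 2 clusters that had OPALIN, which encodes a protein of the paranodal and inner loops of myelin, as their first or second leading gene. In these OPALIN clusters CNTN1 ranged from 58.8 to 328 CPM over libraries, and in the other oligodendrocyte-like clusters from 3.59 to 12.05. ANK3 (2.26 to 2.54-fold), NFASC (1.69 to 2.02-fold) and CNTN2 (1.19 to 1.41-fold) were also higher in the OPALIN clusters in 7 of 7 libraries. So were CNTNAP2 (1.38 to 1.81-fold) and NRCAM (1.03 to 2.40-fold), whose class levels lay below those of microglia-like nuclei. CNTNAP1 was higher there in 3 of 7 libraries and SPTBN4 in 0 of 7. No share over all genes is given here, so these counts do not set the genes apart. The clusters were built without these genes. Inside the OPALIN clusters the 4 log2 ratios of CNTN1 were -1.42, -0.68, -1.25 and 0.69 in order of time. In the other clusters CNTN1 lay below the microglia-like level of the same library in 7 of 7 libraries. The OPALIN clusters held 51.5% of oligodendrocyte-like nuclei in intact lumbar cord and 65.5, 59.6, 61.4 and 67.8% after injury. The cluster with OPALIN as first gene held 1738 nuclei of intact lumbar cord and 17, 88, 39 and 245 of the injured libraries. That with OPALIN as second gene held 51 and 2463, 1049, 1630 and 1069. The log2 ratios inside the OPALIN clusters therefore set mostly 1 cluster against the other.

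**Figure D4:**
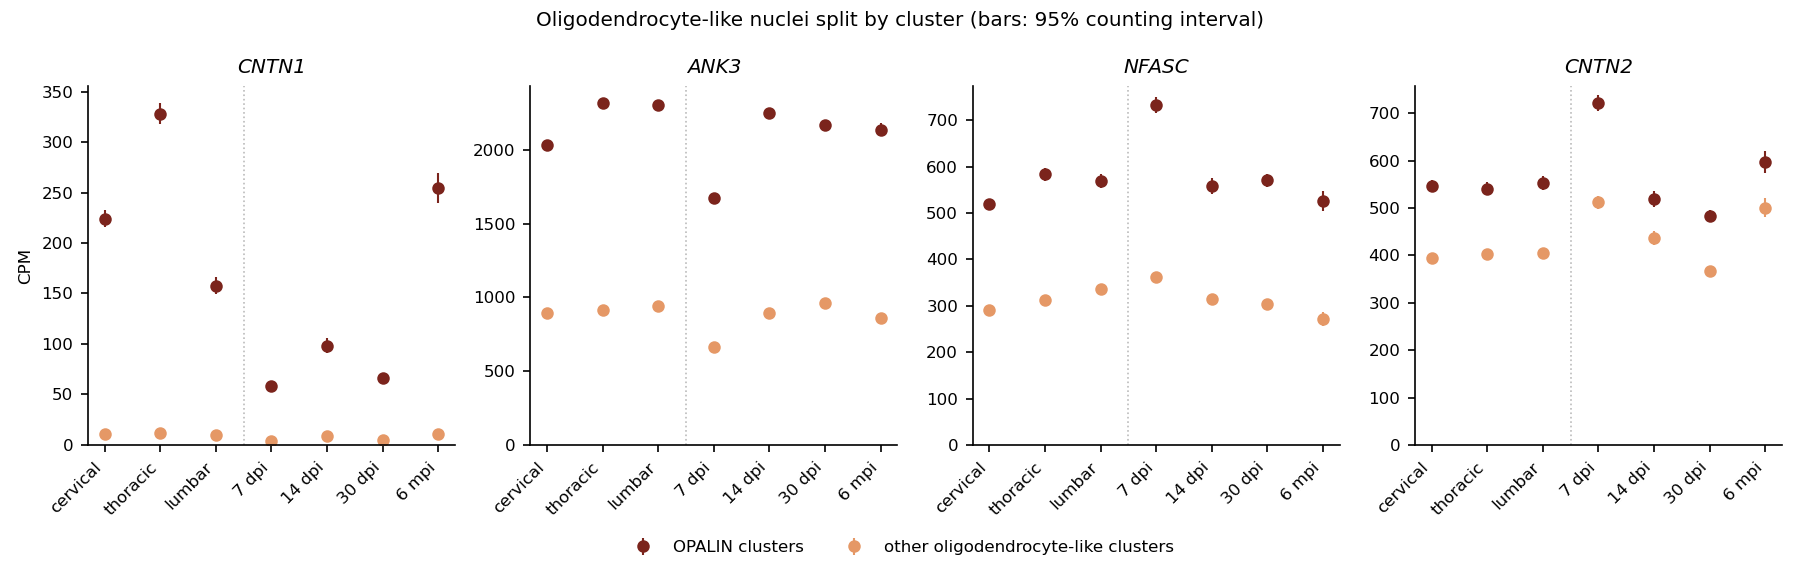
CPM of CNTN1, ANK3, NFASC and CNTN2 in the 2 OPALIN clusters and in the other oligodendrocyte-like clusters, by library, with 95% counting intervals. CNTN1 is at 58.8 to 328 in the OPALIN clusters and at 3.59 to 12.05 in the others.

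Finer clustering of the oligodendrocyte lineage gave 16 oligodendrocyte-like sub-clusters, besides 1 of 310 nuclei led by microglial genes such as P2RY12 that is left out here. Among the 16, CNTN1 ranged from 4.94 to 1744 CPM, ANK3 from 728 to 4377 and NFASC from 254 to 1108. These 3 peaked in a sub-cluster of 188 nuclei led by CDH7, KANK1 and PALMD, which had nuclei from all 7 libraries. Its CNTN1 level was 1846, 1857 and 1899 in intact cord and 609.5, 793, 1707 and 2255 at 7, 14 and 30 dpi and 6 mpi, with 8 nuclei and 21 UMIs at 7 dpi. Among the 16, NRCAM was highest there as well, at 38.2 (29.2 to 49.2), and at 0.0 to 61.0 in the single libraries. In the sub-cluster left out NRCAM was at 433, and at 77.7 to 1231 in the single libraries. In intact thoracic cord the sub-cluster left out held 842 NRCAM UMIs, against 182 in the OPALIN clusters and 258 in the other oligodendrocyte-like clusters. It therefore included OPC-like nuclei. At 30 dpi the 20 nuclei of the CDH7-led sub-cluster held 384 of the 868 CNTN1 UMIs of the 2720 oligodendrocyte-like nuclei (44.2%). Its share was 3.25 to 25.5% in the other libraries. Without the CDH7-led sub-cluster CNTN1 in oligodendrocyte-like nuclei was at 57.7, 70.6 and 50.5 CPM in intact cord and at 28.5, 43.6, 18.0 and 117 after injury. The log2 ratios were then -0.83, -0.21, -1.49 and 1.21 in order of time. CNTN2 was not highest in the CDH7-led sub-cluster (458), and reached 742 in a sub-cluster led by CMTM8 and RPS6KA1. Of the 1845 nuclei of the latter, 1817 came from the 7 dpi library. Of the 16 sub-clusters, 15 were over 90% intact or over 90% injured nuclei, so comparisons between sub-clusters are also comparisons between animals.

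A further sub-cluster of 118 nuclei scored highest on markers of newly formed oligodendrocytes and was left unnamed. It was led by TMEM108 and BMPER and had no nuclei at 7 dpi. NFASC was at 1389.6 CPM there over all its nuclei, and at 317 to 2171 in the single libraries, the lowest from 2 nuclei at 6 mpi. NRCAM was at 3089.5, just under its OPC-like range of 3264 to 4734, and at 1002 to 5234 in the single libraries. In intact thoracic cord this sub-cluster held 2321 NRCAM UMIs, against 182 in the OPALIN clusters and 258 in the other oligodendrocyte-like clusters. It therefore included OPC-like nuclei, and the OPC-like range is not independent of it. CNTN1 was at 495 and ANK3 at 397.

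In OPC-like nuclei 8 ratios were called, 3 higher and 5 lower, of 29 with enough UMIs. These nuclei too fell mostly into different sub-clusters in intact and injured cord. The first held 711 nuclei of intact lumbar cord and 10, 13, 18 and 34 of the injured libraries, the second 7 and 290, 203, 297 and 184. The rule called 7.98% of all genes higher and 10.0% lower at 7 dpi, 4.78% and 11.1% at 14 dpi, 9.58% and 8.64% at 30 dpi, and 7.42% and 11.5% at 6 mpi. The median log2 ratio of the 8 genes was 0.07, -0.23, -0.27 and -0.12, against -0.05, -0.08, -0.0062 and -0.09 over all genes. Members with too few UMIs were included in the former. CNTNAP2 was lower at 3 times. Its intact levels were 474, 522 and 730.3 CPM (cervical, thoracic, lumbar). The injured levels were 448, 286, 409 and 655 in order of time. The 7, 14 and 30 dpi levels lay below all intact segments, and that of 6 mpi within them. The log2 ratios were -0.71 (-0.82 to -0.59), -1.35 (-1.49 to -1.21), -0.84 (-0.93 to -0.75) and -0.16 (-0.29 to -0.03). Intact lumbar cord was the highest of the intact segments for this gene, and against the mean of the 3 intact segments CNTNAP2 was called lower at 1 time in place of 3.

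CNTN2 was higher in OPC-like nuclei at 14 dpi, 30 dpi and 6 mpi. It was at 80.7, 78.4 and 51.9 CPM in intact cord and at 69.7, 85.0, 92.9 and 96.2 after injury. Intact lumbar cord was its lowest segment, and against the mean of the 3 intact segments CNTN2 was not called at any time. With no nuclei removed as doublets its log2 ratio at 30 dpi was -0.13. The 6 oligodendrocyte markers in OPC-like nuclei stood at 2.04% of their oligodendrocyte-like level in the intact lumbar library, with 9.84% cervically and 8.09% thoracically. In the injured libraries the shares were 2.16, 2.08, 13.8 and 7.32%. The sub-cluster of 118 nuclei led by TMEM108 and BMPER, which included OPC-like nuclei, held CNTN2 at 113 in intact lumbar cord (12 UMIs). After injury it held CNTN2 at 227 at 14 dpi (27 UMIs), 322 at 30 dpi (71 UMIs) and 79.3 at 6 mpi (1 UMI). The part of these markers and of this sub-cluster in the CNTN2 result was not tested.

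The remaining calls in OPC-like nuclei rested on few UMIs. CNTNAP1 was lower at 30 dpi (10.4 against 19.6, 37 UMIs against 92) and SPTBN4 at 6 mpi (5.46 against 17.4, 5 UMIs against 82). CNTN1, NFASC, NRCAM and ANK3 were not called. NRCAM was at 4087, 4284 and 4381 in intact cord and at 4157, 4734, 3264 and 3582 after injury. NFASC was within 354 to 399 in intact cord and at 415, 387, 405 and 308 after injury.

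Neuron-like nuclei were split into 35 sub-clusters besides 3 led by glial genes. CNTNAP2 ranged from 1926 CPM in a sub-cluster of 515 nuclei led by NMUR2 to 10593 in another of 173 nuclei led by DNAH8, ADAMTS20 and NPY. CNTN2 spread most, from 8.43 to 208, and was highest in 277 nuclei led by LMO3. A sub-cluster of 172 nuclei led by BNC2 and NPFFR2 was the lowest for CNTN2, CNTNAP1 (34.9), NRCAM (149.8) and ANK3 (294). NFASC was highest (517) in 57 cholinergic-like nuclei led by SPNS3, SLC28A2 and GNA14, where SPTBN4 was lowest (62.1). Within inhibitory-like nuclei NFASC was at 346 in the intact lumbar library and at 351, 281, 286 and 244 in the injured libraries.

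**Figure D5:**
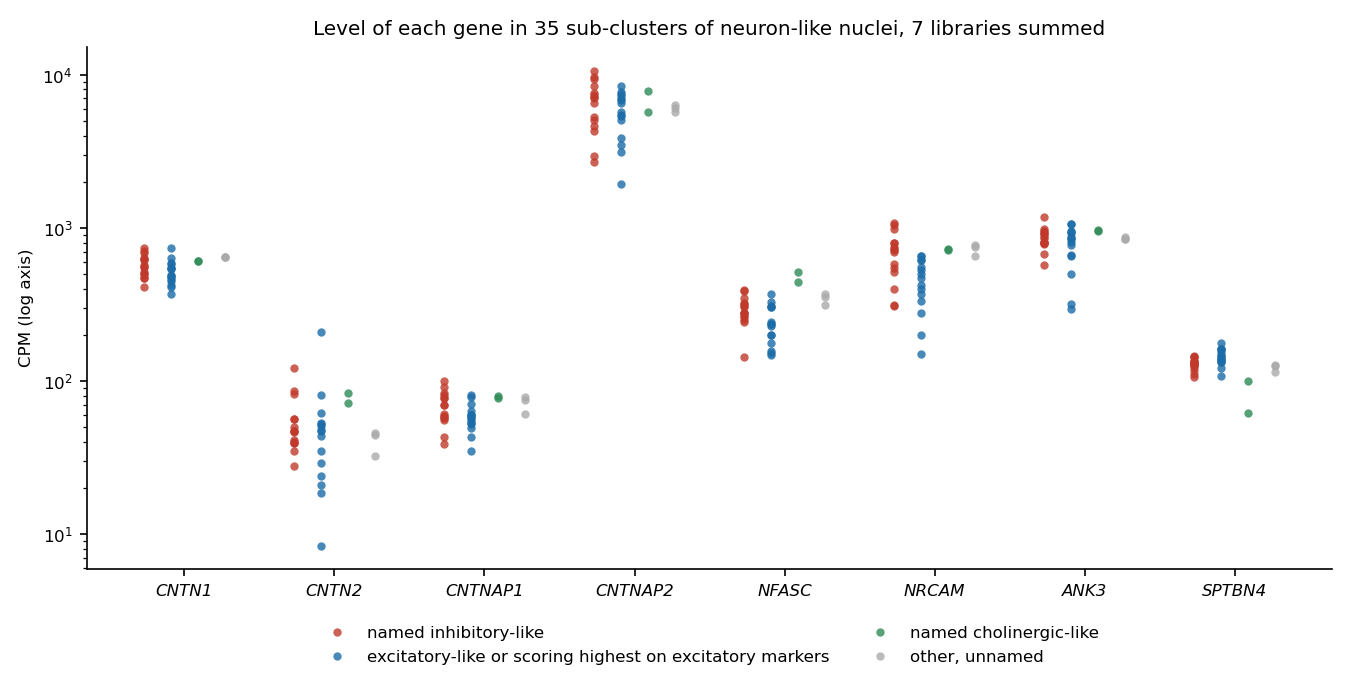
CPM (log axis) of each gene in 35 sub-clusters of neuron-like nuclei, summed over 7 libraries, with 1 point per sub-cluster coloured by transmitter class. CNTN2 spreads from 8.43 to 208 and CNTNAP2 from 1926 to 10593, while SPTBN4 stays between 62.1 and 176.

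A list of 45 further genes held those of the node, paranode and juxtaparanode, with internodal adhesion molecules, enzymes of paranodal lipid synthesis and relatives of the 8 genes, and 44 of them were found. In neuron-like nuclei 5 of 44 were called higher at any time and 6 lower, against 21.6% and 18.3% of all genes. By time, 2, 0, 0 and 3 of 44 were called higher and 3, 4, 2 and 3 lower. KCNA2 and KCNA1, the potassium channels of the juxtaparanode, were lower at 4 and 3 of 4 times. KCNA2 was at 5.26, 4.54 and 5.00 CPM in intact cord and at 2.30, 1.74, 1.79 and 1.85 after injury. KCNA1 was at 14.3, 8.39 and 11.6 in intact cord and at 9.03, 6.31, 6.94 and 4.91 after injury. Both were at or under 0.41 in microglia-like nuclei. VCAN and NCAN, matrix proteoglycans, were lower at 2 and 1 times. VCAN was at 9.49 and 5.64 then, within its microglia-like range of 4.79 to 76.0. HAPLN2, the matrix link protein of the node, was higher at 6 mpi (46.5 against 14.7), with 27.0 cervically and 29.4 thoracically, within its microglia-like range of 12.3 to 119. BCAN (23.6 against 14.9) and LGI3 (40.2 against 26.3) were also higher at 6 mpi, and SCN4B, a sodium channel subunit, at 7 dpi (33.2 against 22.1).

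In oligodendrocyte-like nuclei 16 of 37 tested genes of the list were called higher at any time and 10 lower, against 33.5% and 18.4% of all genes. By time, 7 of 36, 7 of 37, 2 of 35 and 8 of 33 tested were called higher and 2, 5, 6 and 2 lower. CADM4, the internodal adhesion molecule of the myelinating glia, was called higher at 3 times, and at 2 times against the mean of the 3 intact segments (22.0). Its level of 19.9 in the intact lumbar library compared with 58.4, 32.8, 34.6 and 27.2 in the injured libraries. CHL1 and CADM3 were called higher at 2 times each at levels up to 8.73 and 4.28, near their highest levels in microglia-like nuclei (8.60 and 5.20). CNTN6 was called lower at 3 times (2.25 against 11.6 at 6 mpi) and CNTN3 at 2 times (13.9 against 44.7 at 14 dpi). SCN1A was called lower at 2 times (2.64 and 2.81 against 5.83), below its microglia-like range of 4.11 to 9.88. HAPLN2 was lower at 14 dpi (673) and 30 dpi (663) than in intact lumbar cord (1064), and at 1579.6 at 6 mpi. Intact lumbar cord was its highest segment, with 984 cervically and 843 thoracically, and against the mean of the 3 HAPLN2 was called lower at no time and higher at 6 mpi.

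In OPC-like nuclei 6 of 36 tested genes of the list were called higher and 8 lower at any time, against 19.2% and 21.4% of all genes. By time, 0 of 33, 0 of 30, 4 of 36 and 2 of 29 tested were called higher and 3, 4, 4 and 2 lower. CNTN3, a relative of CNTN1, was lower at 4 of 4 times, at 52.3, 16.0, 43.2 and 43.7 against 94.9 in intact lumbar cord. The cervical and thoracic segments held CNTN3 at 55.1 and 56.5, and against the mean of the 3 it was lower at 3 times. CNTN4 was lower at 14 dpi (163 against 326) and 6 mpi (173) and BCAN at 30 dpi (222 against 390.0). Against the mean of the 3 segments BCAN was not called. CNTN5 was lower at 2 times (2.32 and 5.05 against 11.7), below or within its microglia-like range of 3.30 to 12.3. CNTNAP4, a relative of CNTNAP2, was lower at 14 dpi (49.3 against 88.9) and higher at 6 mpi (145). HAPLN2 was higher at 6 mpi (128 against 22.1). Intact lumbar cord was its lowest segment, with 88.0 cervically and 63.5 thoracically, and against the mean of the 3 the log2 ratio was 1.14. The oligodendrocyte markers were also higher in that library (7.32% against 2.04%), and their part in the HAPLN2 result was not tested. GLDN was higher at 30 dpi (25.3 against 8.72) and KCNAB2 at 30 dpi (20.5 against 13.6). GLDN and KCNAB2 lay within or below their levels in microglia-like nuclei.

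Over 35 values, the 5 classes in 7 libraries, the genes most alike in level to each member were ranked by Pearson's r among 7192 genes. The points share libraries and classes, so r is given as a description. CNTN1 was most like NTRK2 (0.98), CNTN2 like TMCC2 (0.97), CNTNAP1 like TMEM145 (0.96) and CNTNAP2 like PCSK2 (0.99). NFASC was most like CDH11 (0.99), NRCAM like ST6GAL2 (1.00), ANK3 like TMEFF2 (0.99) and SPTBN4 like CLSTN2 (0.96).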

How the data were processed

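The deposited files hold UMI counts per gene and nucleus, as the authors obtained them with Cell Ranger 6.0.0 on Mmul_10. Whether intronic reads were counted is not given in the sources used here. The filter required more than 500 genes and more than 1000 UMIs, less than 10% of UMIs from mitochondrial genes and less than 5% from haemoglobin genes. The highest 5% by Scrublet score per library were removed. Counts were scaled to 10000 per nucleus, and clusters were built with scanpy 1.11.5 from 2000 variable genes less the 8 genes and the pathway list, 30 principal components, 20 neighbours and Leiden resolution 1. Clusters were named from marker lists. The naming rule was set after the clusters were seen, and members and lists were chosen with earlier results of these data known. Names rebuilt in this way may differ from those of the study. UMIs were summed per class and library, with exact Poisson intervals for levels, exact conditional binomial intervals for ratios and exact Clopper-Pearson intervals for shares. UMIs of 1 library are not replicates. Of the pathway list, up to 4 called genes per class and direction were named, those called at the most times first. Some items are not reported here. The call rule was checked on counts simulated from the intact lumbar means with counting error alone. Differences between segments or animals were not part of that check. Alternatives changed doublet removal, class naming, resolution, depth, scaling, background, reference, fold and the UMI minimum. Leaving out sub-clusters led by another class, or shared barcodes, splitting oligodendrocyte-like clusters, leaving out the sub-cluster with the highest CNTN1, and setting the pathway list against the mean of the intact segments were added after seeing the data.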

Additional observations from a re-analysis of the deposited data

Results flagged for a closer look

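CNTNAP2 lay on opposite sides of its intact lumbar level in neuron-like and OPC-like nuclei. In neuron-like nuclei its log2 ratio to intact lumbar cord was above 0 at 4 of 4 times, from 0.079 to 0.27, and none of these ratios was called. In OPC-like nuclei it was below 0 at 4 of 4 times, from -1.35 to -0.16. Intact lumbar cord was the highest intact segment for CNTNAP2 in OPC-like nuclei (730.3 CPM), the 6 mpi level (655) lay within the intact range, and against the mean of the 3 intact segments 1 of the 3 calls was left. With 1 library per group the difference between the classes was not tested, and all ratios share the intact lumbar library.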

How the results depend on the processing

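Of 18 called ratios, recomputed 211 times under 12 alternatives, 206 kept their direction. With the microglia-like level subtracted, CNTN1 in oligodendrocyte-like nuclei changed to 0.36 at 7 dpi and 0.62 at 30 dpi, and SPTBN4 to 1.05 at 14 dpi and 1.43 at 30 dpi, on the log2 scale. With no doublet removal CNTN2 in OPC-like nuclei at 30 dpi changed to -0.13. The calls in neuron-like nuclei, 0 as reported, became 2 after thinning to 1000 UMIs, 1 with median of ratios scaling and 1 with the microglia-like level subtracted. NFASC was lower in these 3 settings. In oligodendrocyte-like nuclei the 10 calls became 3 after thinning, 3 after the subtraction and 6 at 2-fold. In OPC-like nuclei the 8 calls became 2 after thinning, 3 against the mean of the 3 intact segments and 2 at 2-fold. The cause of the other changes was not tested. Thinning leaves fewer UMIs and a higher fold fewer ratios to call. The counts between classes stayed within 1.5 times under 11 alternatives. NFASC was higher in oligodendrocyte-like than OPC-like nuclei in all libraries with no doublet removal, nuclei named alone or resolution 2. The same held with own-class markers above every other class, thinning, the mean over nuclei or median of ratios scaling. It did not hold with the highest 10% by doublet score removed, after the subtraction, or without shared barcodes or sub-clusters led by another class. No paired analysis was possible because each group had 1 library. Depth limits CNTNAP1 and SPTBN4 in oligodendrocyte-like and OPC-like nuclei.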
